A study of Mus musculus with 2 samples.

Results

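The 9 genes described here encode the neuronal intermediate filaments and the main structural microtubule-associated proteins of the axon and dendrite. They are Nefl, Nefm, Nefh, Ina, Prph, Mapt, Map2, Map1a and Map1b, chosen by gene symbol, and each had its own row among the 23282 rows of the count tables. All 9 passed the minimum of 20 counts summed over both libraries. Dorsal root ganglia came from mice of WT genotype that had received acetone, ether and water (AEW), which dries the skin and produces itch, or water alone in the control group. Treatment ran for 5 consecutive days and ganglia were collected on day 6. Each group is a pool of RNA from 6 mice, read here as 1 library, so no difference below has a replicate check. The labels name neither the strain and age of the mice nor the skin area treated.

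Neurofilaments are heteropolymers that fill large axons and set their calibre. Nefl encodes the light subunit that forms the core, Nefm and Nefh encode the medium and heavy subunits with long phosphorylated tails, and Ina (alpha-internexin) and Prph (peripherin) encode subunits that assemble with them. In sensory ganglia, heavy neurofilament marks the large neurons with myelinated axons, whereas peripherin is typical of small neurons with unmyelinated axons. Tau (Mapt), Map2 and the Map1 proteins bind along microtubules and stabilise or space them. Tau is mainly axonal, Map2 is mainly somatodendritic, Map1b is prominent in growing and adult sensory axons, and Map1a is prominent in mature neurons.

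Total depth was 9333882 counts for the control and 14376228 for AEW. Scaled CPM below is the count per 1000000 counts of the library, after correction of the library size by the trimmed mean of M-values (TMM), and each ratio is AEW over control with a 95% interval for counting error alone. A gene was called higher or lower when the ratio reached 1.5-fold and its interval excluded 1. The samples are labelled as neurons, yet 17 Schwann cell markers took 2.22% of control counts and 1.98% of AEW counts. The RNA was therefore not that of neurons alone. In such bulk RNA, more or fewer neurons cannot be told apart from more or less RNA per neuron. Skin marker genes had 412 control counts and 13621 AEW counts over 14 rows, and all 13 measured ones were called higher. Krt5 and Krt14, keratins of the basal epidermis, had 1 control count each against 1336 and 1218, and Ivl and Dsg3 had 0 control counts. Their part in the values below was not tested.

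Under TMM scaling, 5 of the 9 genes were higher in the AEW library, namely Mapt, Map1a, Ina, Prph and Map1b, and none was lower, whereas scaling on neuronal markers (below) left none of them called higher. Among all 14854 measured genes, 17.3% were called higher and 14.9% lower. The median log2 ratio of the 9 genes was 0.68, beside 0.03 over all measured genes and 0.06 over the 4422 genes with at least 1000 summed counts. In that high-count set 15.0% were called higher and 10.2% lower. Together the 9 genes accounted for 0.845% (0.839 to 0.851) of the control library and 1.40% (1.40 to 1.41) of the AEW library. These directions depend on the scaling. When the libraries were scaled so that 17 pan-neuronal markers had a median log2 ratio of 0, every log2 ratio dropped by 0.91, the median of the 9 genes became -0.24, and 0 of them were called higher and 1 lower. On that scale 2.97% of all measured genes were called higher and 66.4% lower, or 441 and 9856 genes in place of 2577 and 2220.

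**Figure D1:**
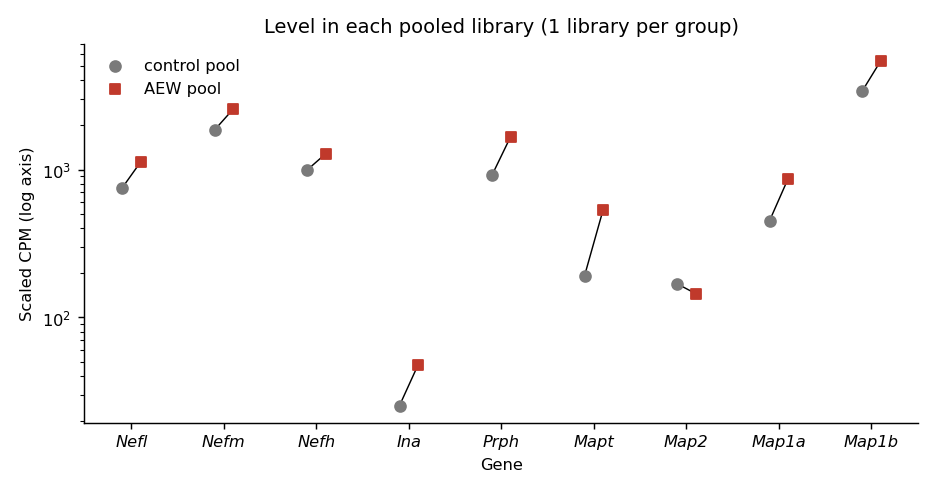
Scaled CPM (log axis) of each gene in the control pool (grey circles) and the AEW pool (red squares), 1 library per group, with a line joining the 2 values of a gene. Map1b is the most abundant by CPM in both libraries, Mapt has the steepest line, from 191 to 532, and Map2 alone slopes down. Scaled on pan-neuronal markers, all except Mapt and Map1a would slope down.

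The sequence before the transcription start was at hand for 5 of the 9 genes, Ina, Prph, Map1a, Map1b and Map2, in the RefSeq table on GRCm38.p6 (the mm10 assembly). Prph, Map1b and Map2 are shown as 2 deeply counted genes with a higher call and the gene with the lowest ratio. Prph (chr15:99054924-99055173, plus strand) and Map1b (chr13:99516603-99516852, minus strand) were called higher, and Map2 (chr1:66175079-66175328, plus strand) had the lowest ratio. Each run is the 250 bases before the RefSeq start, 5′ to 3′ on the gene's strand. Of these 3 genes, Map2 and Map1b have GENCODE starts (66175273 and 99516540) that differ from the RefSeq ones. The Map2 window runs past its GENCODE start, and the Map1b window ends short of its own. Capitals mark the TATA box motif, searched as TATAAA, and the GC box motif, searched as GGGCGG. Both were searched on either strand, and no capital run in these 3 windows belongs to both motifs.
Prph: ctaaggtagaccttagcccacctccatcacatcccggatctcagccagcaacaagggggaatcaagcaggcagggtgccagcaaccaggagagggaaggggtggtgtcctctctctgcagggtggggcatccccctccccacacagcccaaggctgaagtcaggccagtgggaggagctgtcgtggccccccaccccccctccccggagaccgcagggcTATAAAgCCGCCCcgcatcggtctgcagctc
Map1b: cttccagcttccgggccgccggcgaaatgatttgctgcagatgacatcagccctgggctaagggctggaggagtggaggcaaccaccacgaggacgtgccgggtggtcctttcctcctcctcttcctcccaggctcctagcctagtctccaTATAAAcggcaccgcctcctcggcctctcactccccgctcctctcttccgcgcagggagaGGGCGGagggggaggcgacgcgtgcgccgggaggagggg
Map2: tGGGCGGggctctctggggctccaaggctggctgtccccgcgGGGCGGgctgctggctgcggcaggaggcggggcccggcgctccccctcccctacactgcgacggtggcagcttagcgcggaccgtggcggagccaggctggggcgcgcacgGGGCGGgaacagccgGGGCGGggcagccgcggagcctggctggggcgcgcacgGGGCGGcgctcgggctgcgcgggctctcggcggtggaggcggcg
A TATAAA match began 31 bases before the start of Prph and 99 bases before that of Map1b, and none lay in the windows of Map2, Map1a and Ina. Of 32851 windows of this length in the table, 12.4% held TATAAA on either strand. GC boxes numbered 5 in Map2, 4 in Map1a, 2 in Ina and 1 each in Prph and Map1b, and 32.7% of all windows held at least 1. The Map2 window was 81.2% G and C, against 65.2% for Prph, 66.4% for Map1b, 66.0% for Map1a, 70.8% for Ina and a median of 52.4% over all windows. These matches describe letters and were not tested as sites.

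The 3 neurofilament subunits were above the control level under TMM scaling by 1.29-fold to 1.499-fold, below the calling threshold, and below the control level when scaled on pan-neuronal markers. Nefl (ENSMUSG00000022055.7, chromosome 14, 68083863 to 68089095, plus strand) had 6775 control counts and 16622 AEW counts, or 748 and 1122 scaled CPM. Its ratio of 1.499 (1.46 to 1.54) lay just under the threshold, at a log2 ratio of 0.58. Nefm (ENSMUSG00000022054.11, chromosome 14, 68082590 to 68124846, minus strand) had 16729 and 37833 counts, or 1848 and 2553 scaled CPM. The AEW value of Nefm was 1.38 times the control value (1.36 to 1.41). For Nefh (ENSMUSG00000020396.8, chromosome 11, 4938754 to 4948064, minus strand) the counts were 8970 and 18898, or 991 and 1275 scaled CPM. The heavy subunit thus had the smallest ratio of the trio, 1.29 (1.26 to 1.32), and the light subunit the largest. Nefl was called higher under total count scaling (log2 ratio 0.67) and after correction for GC content (0.60 on the longest transcript, 0.73 on its last 500 bases). It was also called higher after random thinning of the AEW library to the control depth (0.59). With a value so near the threshold, the call after thinning may depend on the random draw.

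Nefl and Nefm are neighbours on opposite strands, and one annotated Nefm transcript reaches into Nefl. Their exons share the first 1108 bases of Nefl (chr14:68083863-68084970). The sources used here do not say whether counting used strand, so reads from these bases could have been counted for either gene. Nefh has 1 coding transcript of 3994 bases in 4 exons, and no other annotated gene overlaps it.

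Among the partner subunits, both were called higher. Prph (ENSMUSG00000023484.14, chromosome 15, 99055174 to 99058978, plus strand) had 8296 control counts and 24611 AEW counts, or 916 and 1661 scaled CPM. The peripherin ratio was 1.81 (1.77 to 1.86). It was above those of Nefh and Nefm under TMM scaling and both GC corrections, but its place relative to Nefl depended on the correction. The log2 ratios of Prph and Nefl were 0.86 and 0.58 under TMM scaling, 0.62 and 0.60 with GC content of the longest transcript corrected, and 0.70 and 0.73 with that of its last 500 bases. Ina (ENSMUSG00000034336.3, chromosome 19, 47014698 to 47025327, plus strand) had only 230 and 708 counts, or 25.4 and 47.8 scaled CPM. With so few counts its ratio of 1.88 (1.62 to 2.19) had the widest interval of the 9, which also contains the Prph ratio. The first 456 bases of Ina overlap an exon of Nt5c2 on the opposite strand, a row with 201 and 380 counts. Scaled on pan-neuronal markers, the log2 ratios of Prph and Ina were -0.05 and -0.00088, both close to 0.

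Of the 2 related microtubule-binding genes Mapt and Map2, one had the highest and the other the lowest ratio of the 9. Mapt (ENSMUSG00000018411.17, chromosome 11, 104231390 to 104332090, plus strand) had 1731 control counts and 7880 AEW counts, or 191 and 532 scaled CPM. The tau gene was therefore 2.78-fold higher (2.64 to 2.93), a log2 ratio of 1.48 that exceeded those of 96.0% of measured genes and 99.0% of genes with at least 1000 counts. It also exceeded 16 of the 17 pan-neuronal markers. On the pan-neuronal scale its log2 ratio was 0.56, the largest of the 9 but short of the threshold. Map2 (ENSMUSG00000015222.17, chromosome 1, 66175273 to 66442583, plus strand) had 1531 and 2152 counts, or 169 and 145 scaled CPM. At a ratio of 0.859 (0.804 to 0.917) it was not called, and 0 of the 17 pan-neuronal markers had a lower ratio. The Map2 ratio exceeded those of 34.5% of measured genes and 29.1% of genes with at least 1000 counts. Scaled on those markers, Map2 had a log2 ratio of -1.13 and was called lower, as were 66.4% of all measured genes.

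Both MAP1 genes, whose products are cut into heavy and light chains that bind microtubules, were called higher. Map1a (ENSMUSG00000027254.13, chromosome 2, 121289600 to 121310832, plus strand) had 4075 and 12817 counts, or 450.1 and 865 scaled CPM. The AEW level of Map1a was 1.92-fold the control level (1.85 to 1.99). Map1b (ENSMUSG00000052727.6, chromosome 13, 99421446 to 99516540, minus strand) had 30543 and 79925 counts, or 3373 and 5393 scaled CPM, which placed it at rank 17 of all rows by CPM in the control and rank 9 in the AEW library. Its ratio of 1.60 (1.58 to 1.62) had the narrowest interval of the 9. The last 272 bases of Map1a overlap an exon of Ppip5k1 on the opposite strand, a row with 97 and 252 counts. With pan-neuronal scaling the log2 ratio of Map1a was 0.03 and that of Map1b -0.24, and neither was called.

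**Figure D2:**
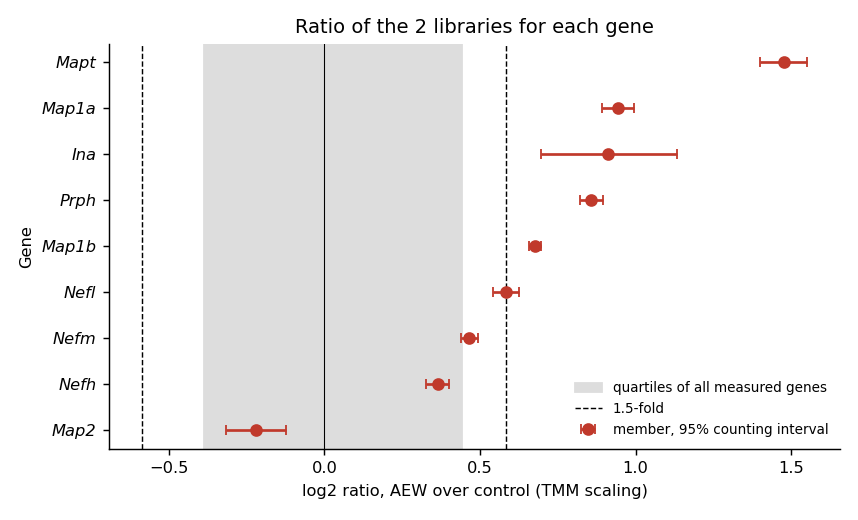
log2 ratio of AEW over control (TMM scaling, horizontal axis) for each gene, with 95% counting intervals; dashed lines mark 1.5-fold in either direction and the grey band the quartiles of all measured genes, -0.39 and 0.44. Map2 and Nefh lie within the band, Nefm and Nefl between it and the dashed line, and the other 5 beyond the line. Scaling on pan-neuronal markers would shift every point by -0.91.

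Ratios between 2 of the genes within a library do not depend on library scaling, though they do depend on GC correction. Counts of Nefm per count of Nefl were 2.47 for control and 2.28 for AEW, a change of 0.922-fold (0.891 to 0.953). Nefh per Nefl went from 1.32 to 1.14, a change of 0.859-fold (0.827 to 0.892). The heavy and medium subunits were thus slightly lower relative to the light one, beyond counting error, and more so after the GC corrections (0.814-fold and 0.771-fold for Nefm, 0.750-fold and 0.744-fold for Nefh). Prph per Nefh was 0.925 for control and 1.30 for AEW, a change of 1.41-fold (1.36 to 1.46), and Prph per Nefl changed by 1.21-fold (1.16 to 1.26). With GC content corrected, Prph per Nefh changed by 1.36-fold (longest transcript) or 1.31-fold (last 500 bases). The change of Prph per Nefl was then 1.02-fold (0.980 to 1.06) or 0.975-fold (0.939 to 1.01), with intervals that contain 1, so no difference between peripherin and the light subunit held under either correction. Ina per Nefl was 0.0339 and 0.0426, a change of 1.25-fold (1.08 to 1.47), and the corrected changes of 1.16-fold (0.992 to 1.35) and 1.07-fold (0.922 to 1.26) also had intervals that contain 1.

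The widest shift between relatives was that of Map2 per Mapt, at 0.884 for control and 0.273 for AEW. This ratio was 3.24-fold lower (2.98 to 3.52) in the AEW library. Mapt per Map1b went from 0.0567 to 0.0986, a change of 1.74-fold (1.65 to 1.84). Map1a per Map1b went from 0.133 to 0.160, a change of 1.20-fold (1.16 to 1.25). Under the GC corrections these 3 pairs kept their directions, with intervals that exclude 1. Of all counts of the 9 genes, Mapt took 2.19% for control and 3.91% for AEW, Map2 1.94% and 1.07%, Nefm 21.2% and 18.8%, Nefh 11.4% and 9.38%, and Prph 10.5% and 12.2%. Map1b took the largest part in both, 38.7% and 39.7%.

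**Figure D3:**
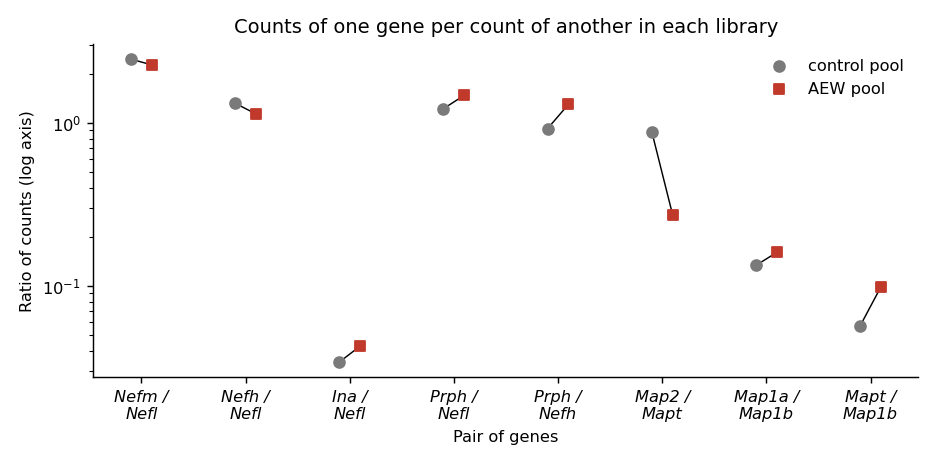
Counts of the first gene per count of the second (log axis) for 8 pairs, in the control pool (grey circles) and the AEW pool (red squares). Map2 per Mapt falls from 0.884 to 0.273 and Prph per Nefh moves from 0.925 to 1.30, and both are independent of library scaling.

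Levels between genes were compared per kb of the longest coding transcript, an order that holds only if reads covered whole transcripts. In the control library the order was Nefm at 502 scaled CPM per kb, Prph at 492, Map1b at 286, Nefh at 248, Nefl at 221, Map1a at 38.1, Mapt at 36.4, Map2 at 27.0 and Ina at 7.84. The counting intervals of Nefm (495 to 510) and Prph (481 to 503) overlapped, as did those of Map1a (36.9 to 39.2) and Mapt (34.7 to 38.2). In the AEW library the order was Prph at 891, Nefm at 694, Map1b at 457, Nefl at 332, Nefh at 319, Mapt at 101, Map1a at 73.1, Map2 at 23.2 and Ina at 14.7 scaled CPM per kb. No neighbours had overlapping counting intervals there, and Nefl and Nefh were the closest, at 327 to 337 and 315 to 324. The place of Prph above Nefm in the AEW library rests on the division by length. By scaled CPM alone Nefm was above Prph in both libraries (1848 and 916 for control, 2553 and 1661 for AEW). Mapt has 8 annotated coding transcripts and Map2 has 16, of widely different length. With the median coding length in place of the longest, Mapt came to 132 and 368 scaled CPM per kb and ranked above Nefl and Nefh in the AEW library. The labels name a Lexogen QuantSeq kit. Beyond this name, the sources used here do not say whether reads covered whole transcripts or mainly their 3′ ends. In the second case counts do not scale with length, and the order by scaled CPM alone applies.

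The genes closest to the extremes were found by log2 ratio over the 2 libraries, among genes with a summed count within 2-fold. Nearest to Mapt were Ngfr, the low-affinity neurotrophin receptor, at 178 and 478 scaled CPM (log2 difference 0.048) and the imprinted gene Snrpn at 249 and 631 (0.13). Nearest to Map2 were Rnase4, a secreted ribonuclease, at 96.4 and 82.8 scaled CPM and the kinase gene Pim3 at 129 and 111. With 2 libraries, likeness means only an equal ratio, and 1996 genes were candidates for Map2 against 669 for Mapt.

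Other intermediate filament genes, outside the neuronal types, went in both directions. Beside the calls in this list and those below under TMM scaling stand 17.3% of all measured genes called higher and 14.9% lower. Of 8 measured of 9 listed, 2 were higher and 1 lower, with a median log2 ratio of -0.17. Vim, the vimentin gene of glia and connective tissue, had 1191 and 758 scaled CPM and was 1.57-fold lower (1.53 to 1.61). Nes, encoding nestin, was at 110.1 and 88.1 scaled CPM, a ratio of 0.80 (0.74 to 0.87). Synm, encoding the linker filament synemin, was 1.64-fold higher (1.54 to 1.75) and Lmnb1, a nuclear lamin, 1.65-fold higher (1.25 to 2.22). Cytolinkers and proteins of the spectrin membrane skeleton had 1 of 13 higher and 1 lower, with a median of 0.24. Sptbn4, the spectrin of axon initial segments and nodes of Ranvier, had 22 and 133 counts, 3.69-fold higher (2.34 to 6.09). Add3, an adducin, was 2.10-fold lower (1.96 to 2.25), while Sptbn1 had a ratio of 0.766 (0.748 to 0.784) and Ank2 one of 1.38 (1.30 to 1.47).

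Other microtubule-associated proteins were higher in 6 of 26 measured genes and lower in 1, with a median log2 ratio of 0.32. Camsap3, which caps microtubule minus ends, was at 13.1 and 31.8 scaled CPM, 2.42-fold higher (1.98 to 2.99). Mapre3, a plus-end tracking protein, was 1.99-fold higher (1.81 to 2.20). Clasp1, which stabilises plus ends, was 1.53-fold lower (1.34 to 1.76), and Clip1, a further plus-end protein, had a ratio of 0.706 (0.635 to 0.785). Genes for microtubule severing and tubulin modification had 3 of 16 higher and none lower (median 0.11), a share of higher calls close to the 17.3% of all measured genes. Of these, Ttll1, a tubulin glutamylase subunit, was 2.66-fold higher (1.82 to 3.98) at 34 and 148 counts and the severing enzyme gene Katnal1 1.60-fold higher (1.47 to 1.75). Ttl, the tubulin tyrosine ligase, was equal in both libraries at 545 scaled CPM, with an interval of the ratio from 0.965 to 1.04, and Fign, a further severing enzyme gene, had a ratio of 0.902 (0.788 to 1.03).

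Kinases and phosphatases that act on tau and neurofilaments, with their activators, included 8 of 27 measured genes called higher and none lower (median 0.30). Cdk5r2, an activator of the kinase Cdk5, had 61.7 and 189 scaled CPM and was 3.06-fold higher (2.79 to 3.36). Mark2, a kinase that releases tau and other proteins from microtubules, was 3.16-fold higher (2.51 to 4.01) at 89 and 460 counts. Its relative Mark3 had a ratio of 0.68 (0.602 to 0.767) and the tyrosine kinase gene Fyn one of 0.803 (0.723 to 0.893), and neither was called. Motors of axonal transport, which carry neurofilaments and vesicles along microtubules, included 10 of 26 called higher and none lower (median 0.35). Kif5a, the neuronal kinesin heavy chain, had 386 and 846 scaled CPM and was 2.19-fold higher (2.11 to 2.27), and the kinesin light chain gene Klc2 was 2.41-fold higher (2.15 to 2.71). Kif5b, the kinesin heavy chain found in most cells, had 1090 and 819 scaled CPM, a ratio of 0.752 (0.732 to 0.772), and the dynein regulator Ndel1 had one of 0.773 (0.719 to 0.831). On the pan-neuronal scale, 0 motors were higher and 12 lower, and 2 of the kinases and phosphatases were higher and 14 lower. Of all measured genes, 2.97% were called higher and 66.4% lower on that scale.

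Most pan-neuronal markers were called higher under TMM scaling, as were 5 of the 9 genes, while Map2 had a lower ratio than all 17. Of 17 pan-neuronal markers, 13 were higher and none lower, with a median log2 ratio of 0.91 and a range of -0.19 to 1.73. They took 0.568% of control counts and 1.02% of AEW counts, and all had counts in both libraries. The largest ratio was that of Rbfox3, which encodes NeuN, at 3.31 (3.03 to 3.62). Avil, encoding advillin, went from 204 to 481 scaled CPM, 2.36-fold higher (2.24 to 2.48). At the other end, Celf4, an RNA-binding protein, had a ratio of 0.877 (0.824 to 0.933) and Stmn2, a tubulin-binding stathmin, 1.11 (1.09 to 1.14). Nefh, Nefm and Nefl exceeded 3, 3 and 4 of these 17 markers, Map1b 4, Prph and Ina 8 and Map1a 9. The part of neuron content in the ratios of the 9 genes was not tested.

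Large myelinated neuron markers, the class that heavy neurofilament marks, included 7 called higher and none lower of 17, with a median log2 ratio of 0.38. Nefh itself was at 0.36. The sodium channel subunit gene Scn8a was 2.91-fold higher (2.63 to 3.22), whereas the transcription factor gene Etv1 had a ratio of 0.79 (0.712 to 0.875) and Calb1, a calcium-binding protein, 0.754 (0.627 to 0.907). Markers of small-diameter neurons, where peripherin is typical, were higher in 9 of 15 and lower in 1, with a median of 0.65 beside 0.86 for Prph. Mrgprd, the beta-alanine receptor, was 4.37-fold higher (3.94 to 4.85) and Th, tyrosine hydroxylase, 3.44-fold (3.06 to 3.87). Ret, a growth factor receptor, was 1.57-fold lower (1.47 to 1.67) and the peptide gene Calca had a ratio of 0.913 (0.897 to 0.93). The difference between these 2 lists was not tested.

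Medians of the nerve injury, Schwann cell, satellite glia, macrophage and spinal cord lists lay below 0. Genes induced by nerve injury were lower in 10 of 12 measured and higher in none (median -1.02). Neurofilament transcripts are known to fall after nerve injury, but a link between these genes and the neurofilament ratios was not tested. Gal, the galanin gene, was 6.00-fold lower (5.57 to 6.47) and Nts, the neurotensin gene, 6.74-fold lower (6.15 to 7.39), whereas the growth cone gene Gap43 had a ratio of 1.05 (0.991 to 1.11) and Jun one of 0.758 (0.696 to 0.825). Schwann cell markers had 0 higher and 3 lower of 16 (median -0.26), with Egr2, a regulator of myelination, 1.88-fold lower (1.61 to 2.20) and Mal, a myelin proteolipid, 1.66-fold lower (1.61 to 1.72). Satellite glia markers had 0 higher and 3 lower of 8 (median -0.22), with Ednrb, an endothelin receptor, 2.55-fold lower (2.36 to 2.77). All 16 macrophage markers were lower (median -1.41), with Ctss, a lysosomal protease, 4.11-fold lower (3.69 to 4.58). Spinal cord markers were checked because Ina and Map2 are abundant in central neurons. They had 563 control counts and 633 AEW counts over 11 genes, or 0.00603% and 0.0044% of counts, with 5 of 10 measured lower (median -0.78), none higher and Slc6a5 at 0 in both. Slc32a1, a transporter of inhibitory neurons, was 2.66-fold lower (1.83 to 3.89), and Chat, a marker of motor neurons, had 7 and 24 counts.

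**Figure D4:**
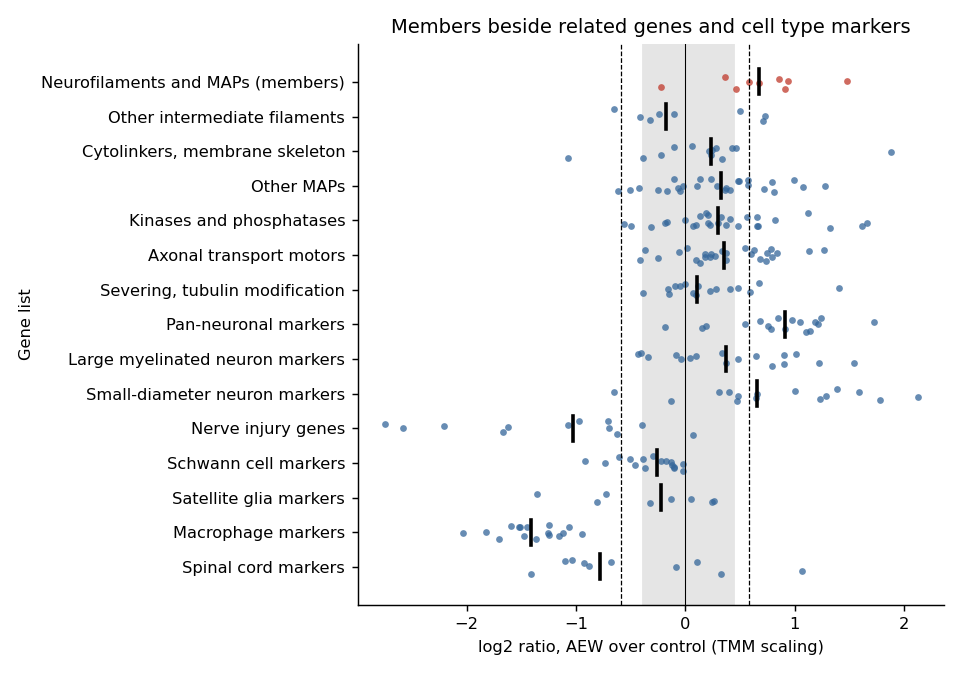
log2 ratio of AEW over control (TMM scaling) of the 9 genes (red) and of each measured gene in 14 lists (blue), with list medians as black bars, dashed lines at 1.5-fold and the quartiles of all measured genes in grey; vertical scatter within a list has no meaning. The 9 genes have a median of 0.68, between that of pan-neuronal markers (0.91) and those of motors (0.35) and other microtubule-associated proteins (0.32). The skin marker list, with a median of 5.58, is not plotted. Scaling on pan-neuronal markers would shift all points by -0.91.

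**Figure D5:**
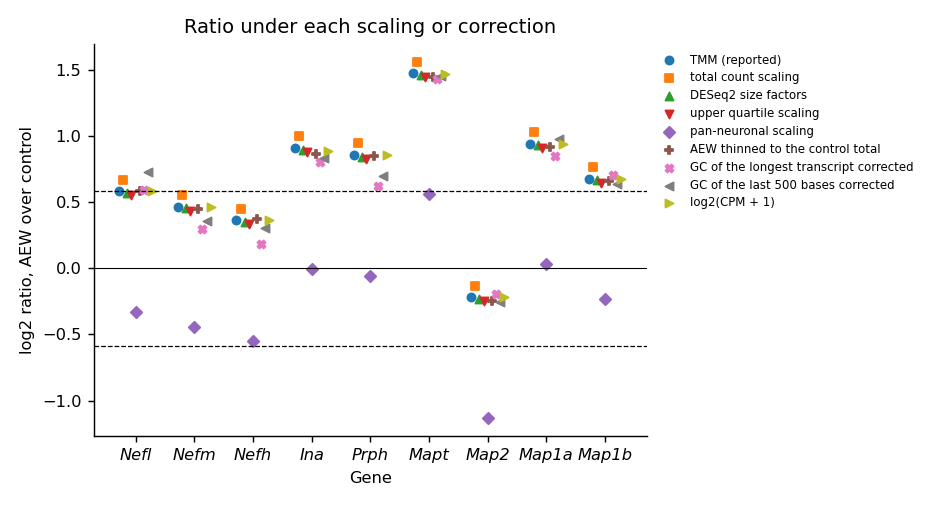
log2 ratio of each gene under the reported TMM scaling and 8 other scalings or corrections, marked by shape and colour, with dashed lines at 1.5-fold. Mapt stays highest and Map2 lowest under all 9, but total count, DESeq2, upper quartile and pan-neuronal scaling shift all genes alike and cannot change the order. Pan-neuronal scaling alone puts Nefl, Nefm, Nefh, Ina, Prph and Map1b below 0.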

How the data were processed

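RNA of dorsal root ganglia was sequenced as 1 library from water-treated and 1 from AEW-treated mice. Libraries were prepared with a Lexogen QuantSeq kit using 500 ng of RNA, per the labels' protocols. The deposited values are raw counts of reads for each gene symbol. Bowtie2, bedtools and build mm10 are named in the submitters' processing notes. The sources used here give no versions, annotation, strand use or handling of reads with several matches.

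Library sizes were scaled with TMM (edgeR 4.0.16, R 4.3.3; factors 0.970 and 1.03). Intervals are exact 95% conditional binomial (Clopper-Pearson) intervals, and for ratios between genes exact conditional intervals of the 2 x 2 counts. They cover counting error only, and reads without molecular identifiers are not independent molecules. With 1 library per group no p-value was computed. The 35 symbols on more than 1 row stayed in totals and out of calls. Of 250 listed symbols, 246 matched a row. Positions and transcript lengths are from GENCODE M21 (mm10, 1-based). Calling was tested on simulated counts with counting error only, which cannot speak to variation between mice or pools.

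The members, lists and rules were chosen with earlier results of these data known. All 9 members are named. From each other list, genes are named by interval, taking the 2 with the highest lower bound and the 2 with the lowest upper bound, or some of these. For Mapt and Map2, the 2 genes of like ratio are named. Ivl, Dsg3, Nt5c2, Ppip5k1 and Slc6a5 were chosen after their values were seen. Some genes that the naming rule takes are not reported here.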

Additional observations from a re-analysis of the deposited data

How the results depend on the processing

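No paired analysis was possible because each group is a single pooled library, and for the same reason no library could be left out. Tried were total count, DESeq2 1.42.0 size factor, upper quartile and pan-neuronal scaling, thinning of AEW counts to the control depth, 2 corrections for GC content, log2(CPM + 1), 2 other count minimums (none and 100), a 2-fold threshold and an interval that excludes 1.5-fold. Of 72 log2 ratios of single members under other settings, 59 kept their direction and side of the threshold. Pan-neuronal scaling, which lowers each log2 ratio by 0.91, turned the sign for Nefl (-0.33), Nefm (-0.45), Nefh (-0.55), Ina (-0.0009), Prph (-0.0542), Map1b (-0.24) and the median of the members (-0.24). It ended the calls of Mapt (0.56) and Map1a (0.0302) and made Map2 (-1.13) lower, with 0 members higher and 1 lower, and 441 of all genes higher and 9856 lower.

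Nefl passed the threshold under total count scaling (0.67), random thinning (0.59) and both GC corrections (0.60 and 0.73). No interval was computed for the members' median log2 ratio. It was set against the counting interval of Map1b alone, the member at the median (0.658 to 0.696). The median lay outside that interval under total count scaling (0.76), upper quartile scaling (0.648) and the GC corrections. These gave 0.62 for the longest transcript and 0.697 for its last 500 bases. At a 2-fold threshold 1 member was higher, as were 1223 genes, with 1018 lower. Requiring an interval that excludes 1.5-fold gave 1327 genes higher and 1071 lower, with 5 members still called.

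With the median coding length, scaled CPM per kb in the control and AEW libraries was 527 and 728 for Nefm, 506 and 918 for Prph, 132 and 368 for Mapt, 86.9 and 74.7 for Map2, 41.0 and 78.7 for Map1a and 466 and 745 for Map1b. Pan-neuronal scaling gave, as higher and lower, 0 and 5 other intermediate filaments, 0 and 13 other microtubule-associated proteins, 2 and 14 kinases and phosphatases, 0 and 12 motors, 0 and 10 severing and modification genes, 1 and 3 pan-neuronal, 1 and 7 large myelinated and 3 and 3 small-diameter neuron markers. Among cytolinkers 8 were lower, and of the glial and central markers 16 Schwann cell, 8 satellite glia and 8 spinal cord genes were lower. These counts stand beside 2.97% of all measured genes called higher and 66.4% called lower on that scale. Depth limits Ina, at 230 and 708 counts, more than the other members.

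GC correction of ratios between members was added after seeing the data. On the log2 scale, with the longest transcript and its last 500 bases respectively, the change was -0.30 and -0.37 for Nefm per Nefl, -0.41 and -0.43 for Nefh per Nefl, 0.44 and 0.39 for Prph per Nefh and 0.15 and 0.34 for Map1a per Map1b. For Prph per Nefl it was 0.0248 and, turned in sign, -0.0365, and for Ina per Nefl 0.21 and 0.10. The cause was not tested.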
